A study of Homo sapiens with 2 samples.

Results

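The NF-kappaB family was examined through 10 genes, chosen by name: the subunits RELA, RELB, REL, NFKB1 and NFKB2, the classical inhibitors NFKBIA, NFKBIB and NFKBIE, and the nuclear IkB proteins NFKBIZ and BCL3. All 10 were present among the 19220 gene symbols of the count table, and all 10 were among the 11244 genes treated as measured, which had at least 100 counts summed over both libraries. The samples were wild-type H9 cells, a human line established from a T cell lymphoma. In the first group, 1 library came from cells kept for 6 h with 0.05 µM doxorubicin, an anthracycline drug that poisons topoisomerase II and leaves DNA breaks. In the second group, 1 library came from untreated cells (0 h). The comparison asks which genes differ between exposed and unexposed cells. There was no untreated library at 6 h, so the drug and the time in culture cannot be told apart in any ratio.

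NF-kappaB factors are dimers of subunits that share a Rel homology domain. RELA, RELB and REL carry transactivation domains, whereas NFKB1 and NFKB2 encode the precursors p105 and p100, which are processed to the DNA-binding subunits p50 and p52. In resting cells IkB proteins hold the dimers in the cytoplasm. IKK kinases mark IkB for ubiquitination and destruction, which frees the dimers, and several family genes are themselves textbook NF-kappaB targets, so that the pathway feeds back on its own parts. In T cells the pathway is switched on through the T cell receptor and TNF family receptors, and DNA breaks can signal to it from the nucleus. The line from which H9 was cloned is known for a rearranged NFKB2 gene whose product lacks part of its C terminus, and counts per gene do not tell such forms apart.

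The promoters of the family are shown first, because they hold the letters through which the feedback is thought to act. RefSeq start windows of GRCh38.p14, the 250 bases before each annotated start, were matched by symbol for 8 members and searched on both strands for the NF-kappaB consensus of 10 bases. A match was found for 6 of these 8, in at least 1 window of each, and for 11.8% of the 27305 genes in the table of windows. The exact letters of the NFKB1 match, GGGAATTTCC, which are 1 spelling of the consensus and were chosen after the promoters had been seen, were found in 5 of 8 members and in 0.176% of all genes. NFKB1, which supplied the letters, is counted among these 5, so its match was fixed in advance and the shares are no test. RELA and BCL3 had no match to the consensus in their windows. The matched 10 bases are in capitals, with flanks in lower case, 5′ to 3′ on the strand of the gene.
REL, chr2:60881518-60881547, + strand: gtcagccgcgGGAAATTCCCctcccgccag
NFKB1, chr4:102501300-102501329, + strand: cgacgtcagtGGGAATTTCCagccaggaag
NFKB2, chr10:102394461-102394490, + strand: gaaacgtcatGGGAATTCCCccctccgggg
NFKB2, chr10:102395674-102395703, + strand: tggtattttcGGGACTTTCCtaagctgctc
NFKBIA, chr14:35404811-35404840, - strand: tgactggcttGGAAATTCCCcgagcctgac
NFKBIB, chr19:38899931-38899960, + strand: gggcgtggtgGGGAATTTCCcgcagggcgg
NFKBIZ, chr3:101827757-101827786, + strand: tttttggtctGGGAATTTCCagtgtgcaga

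NFKB1, NFKBIB and NFKBIZ held the same 10 letters on the strand of the gene, and REL and NFKBIA held them on the opposite strand. The match shown ended 37 bases before the annotated start in REL, 40 in NFKB1, 72 in NFKBIA, 19 in NFKBIB and 214 in NFKBIZ. NFKB2 had 5 matches in 2 of its 3 windows, 2 of the matches overlapping each other, and 2 of the 5 are shown. NFKBIZ had 2 matches in separate windows, and REL and NFKBIB each had 2 that overlap. For each of these genes 1 match is shown. A match is a description of the letters and shows no binding. The genes with matches include the member with the highest ratio of doxorubicin to untreated cells (REL) and the one with the lowest (NFKBIB), as given next.

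The doxorubicin library held 50174434 counts and the untreated library 33730703. The scaling used TMM effective library sizes, and each log2 ratio is doxorubicin over untreated, with an exact 95% interval in parentheses. The intervals cover counting error only: each condition has 1 library, so there is no replicate check and no test, and higher or lower means higher or lower in the doxorubicin library. A call of higher or lower required a ratio of at least 1.5-fold in that direction and an interval that excluded a ratio of 1. T cell markers were present, with 9 of 10 measured and a summed level of 1480 CPM (counts per 1000000 counts of the library) with doxorubicin and 1364 untreated, although CD2 had 2 counts with doxorubicin and 0 untreated. Of the 9, 1 was called higher and 0 lower, beside 7.26% and 9.57% of all measured genes. The marker called was CD3G, at a log2 ratio of 1.11 (1.004 to 1.22). Markers of other cells were mostly near 0, with 5 of 19 measured: CD79A, CD79B, CD68, EPCAM and COL1A1. The B cell list summed to 154 CPM with doxorubicin and 201 CPM untreated, almost all from CD79A and CD79B, with PAX5 at 0 in both libraries. The myeloid list summed to 2.83 with doxorubicin and 1.75 untreated, the natural killer list, with NCR1 at 0 in both libraries, to 0.0997 with doxorubicin and 0.119 untreated, and the epithelial and fibroblast list to 71.5 CPM with doxorubicin and 82.6 CPM untreated. Their part in the ratios was not tested, and in bulk RNA a change in cell number and one in RNA per cell cannot be told apart.

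By this rule REL was higher with doxorubicin, NFKBIB was lower, and the other 8 members were neither. Among all measured genes 7.26% were called higher and 9.57% lower, so 1 of 10 in each direction is near the background. At a 2-fold limit 1 member was called higher and 0 lower, beside 1.14% and 1.56% of all genes, and at a limit looser than 1.5-fold 3 members (REL, NFKB1 and NFKB2) were called higher and 1 lower, beside 20.4% and 21.5%. All 5 subunits had ratios above 1, with a median log2 ratio of 0.45, and all 3 classical inhibitors had ratios below 1, with a median of -0.19, where the median over all measured genes was 0.007. The classes also differ in transcript length, at 2294 to 11255 bases for the subunits and 1159 to 2581 for the classical inhibitors, which bears on the ratios as described further on.

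**Figure D1:**
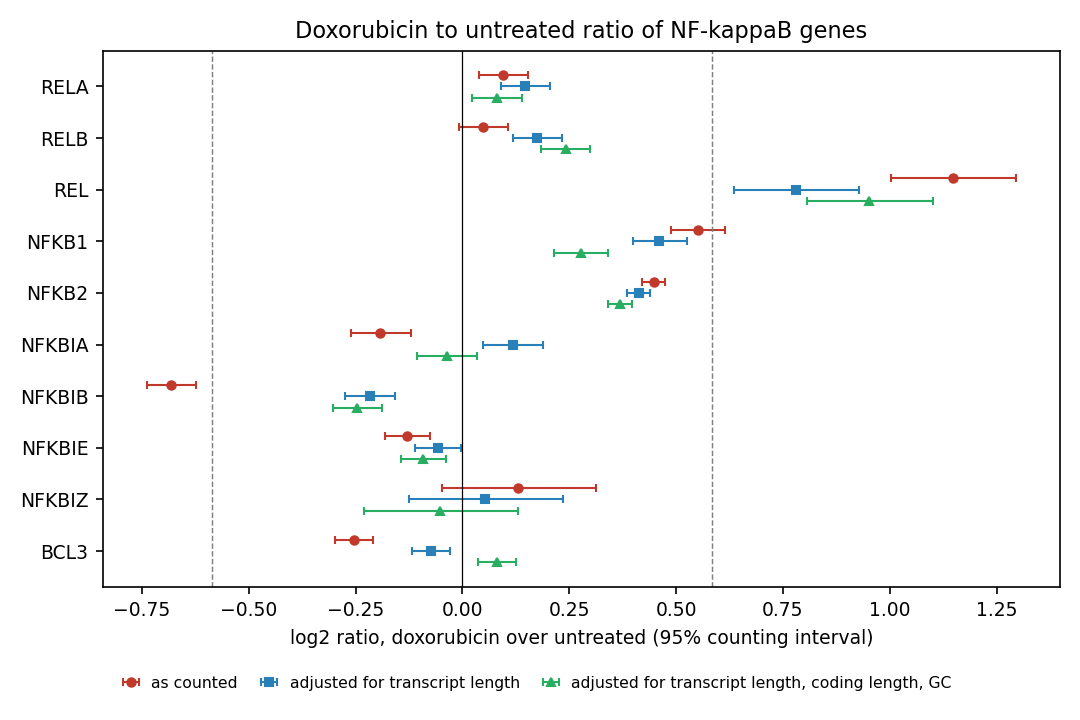
Log2 ratio of doxorubicin over untreated for each member as counted (circles), after adjustment for transcript length (squares) and after adjustment for transcript and coding length and GC content (triangles), with 95% counting intervals as bars and the 1.5-fold limits as dashed lines. REL lies past the upper limit in all 3 versions, and NFKBIB lies past the lower limit as counted only.

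Among the Rel subunits, REL encodes c-Rel, the lymphoid subunit needed for T cell cytokine genes such as IL2. It had 1704 counts with doxorubicin and 493 untreated, a log2 ratio of 1.15 (1.003 to 1.30), or 2.22-fold (2.00 to 2.46). That placed it at percentile 99.3 of all measured genes. Its longest transcript, of 11255 bases, has a long 3' end, and 43.3% of its exon bases are overlapped on the same strand by a 3'-overlapping noncoding RNA of GENCODE 29. Of the stretches of 50 bases sampled from that transcript, 50.3% recur in transcripts of other genes, chiefly the same noncoding RNA, which has no row of its own in the count table. The sources used here do not say how the authors' annotation divided such reads.

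RELA, which encodes p65, the main transactivating subunit of the canonical pathway, had 6410 counts with doxorubicin and 3846 untreated. Its log2 ratio was 0.10 (0.04 to 0.15). RELB, the partner of p52 in the noncanonical pathway, had 6457 and 4002 counts in doxorubicin and untreated cells, with a log2 ratio of 0.05 (-0.008 to 0.11). The ratios of RELA and RELB differed by 0.05 (-0.03 to 0.13), within counting error. The ratio of REL lay above that of RELA by 1.05 (0.90 to 1.21) and above that of RELB by 1.10 (0.94 to 1.26) on the log2 scale, so the Rel subunits did not share one ratio.

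Both precursor genes lay below the size limit, and only NFKB1 lay just short of it. NFKB1 had 6636 counts with doxorubicin and 2903 untreated, a log2 ratio of 0.55 (0.49 to 0.62), or 1.47-fold, and percentile 91.6. Scaled by total counts its log2 ratio was 0.62, past the limit, where 9.64% of all genes were called higher and 7.58% lower. NFKB2 had 34270 and 16111 counts in doxorubicin and untreated cells, a log2 ratio of 0.45 (0.42 to 0.48), or 1.36-fold, and percentile 87.2. NFKB1 lay above NFKB2 by 0.10 (0.04 to 0.17). Both lay above RELA, NFKB1 by 0.46 (0.37 to 0.54) and NFKB2 by 0.35 (0.29 to 0.42). As counted, the genes of the p50 and p52 precursors were thus closer to each other than to the Rel subunits RELA and RELB. That grouping held relative to genes of like length, as described further on. NFKB1 was then at 0.46, NFKB2 at 0.41, RELB at 0.18 and RELA at 0.15. With coding length and GC content also adjusted for, NFKB1 at 0.28 lay below NFKB2 at 0.37 and nearer to RELB at 0.24. RELA was then at 0.08.

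Among the classical inhibitors, NFKBIB encodes IkB beta, which is generally resynthesised more slowly than IkB alpha after stimulation. It had 4779 counts with doxorubicin and 4915 untreated although the doxorubicin library was 1.49 times deeper, a log2 ratio of -0.68 (-0.74 to -0.62), or 0.624 times the untreated level (0.599 to 0.649), at percentile 6.74. NFKBIA, which encodes IkB alpha and is the rapid feedback inhibitor of the canonical pathway, had 3884 counts with doxorubicin and 2845 untreated, a log2 ratio of -0.19 (-0.26 to -0.12). NFKBIE, which encodes IkB epsilon, a slower feedback inhibitor, had 6856 and 4807 counts in doxorubicin and untreated cells, at -0.13 (-0.18 to -0.08). NFKBIB lay below NFKBIA by 0.49 on the log2 scale (difference -0.49, -0.58 to -0.40), whereas NFKBIA and NFKBIE differed by -0.06 (-0.15 to 0.03), within counting error. As counted, the subunit genes NFKB1, NFKB2 and RELA lay above NFKBIA by 0.74 (0.65 to 0.84), 0.64 (0.56 to 0.72) and 0.29 (0.20 to 0.38). Relative to genes of like length, as described further on, they were at 0.46, 0.41 and 0.15, with NFKBIA at 0.12.

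The nuclear IkB genes encode cofactors that bind p50 or p52 dimers on DNA. BCL3, which can coactivate with these homodimers, had 9468 counts with doxorubicin and 7240 untreated, a log2 ratio of -0.25 (-0.30 to -0.21). NFKBIZ, which encodes IkB zeta, a selective coactivator of secondary response genes, had the fewest counts of the family, 685 with doxorubicin and 401 untreated. Its log2 ratio was 0.13 (-0.05 to 0.31), so the counts do not resolve a difference of that size. As counted, NFKBIZ lay above BCL3 by 0.39 (0.20 to 0.57). After the adjustment for 3 properties described further on, that order was reversed, with NFKBIZ at -0.05 and BCL3 at 0.08. In all, 20 pairs of members were compared as counted, with intervals that are not adjusted for that number.

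Levels between genes were compared as CPM per kilobase of transcript, with the length of the longest protein-coding transcript paired with RefSeq in GENCODE 29. NFKB2 led the family in both libraries, at 199.9 (198 to 202) with doxorubicin and 139.8 (138 to 142) untreated. It made up 59.0% of the summed level of the 5 subunits with doxorubicin and 54.6% untreated. REL had the lowest level of the family, 3.02 (2.88 to 3.16) with doxorubicin and 1.30 (1.19 to 1.42) untreated, which was 0.891% of the subunit sum with doxorubicin and 0.507% untreated. The most changed ratio of the family therefore belonged to its least abundant mRNA by this measure, which rests on the long transcript assigned to REL. In CPM without division by length, NFKBIZ was lower than REL. NFKBIZ was at 13.7 with doxorubicin and 11.9 untreated, and REL at 34.0 with doxorubicin and 14.6 untreated.

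**Figure D2:**
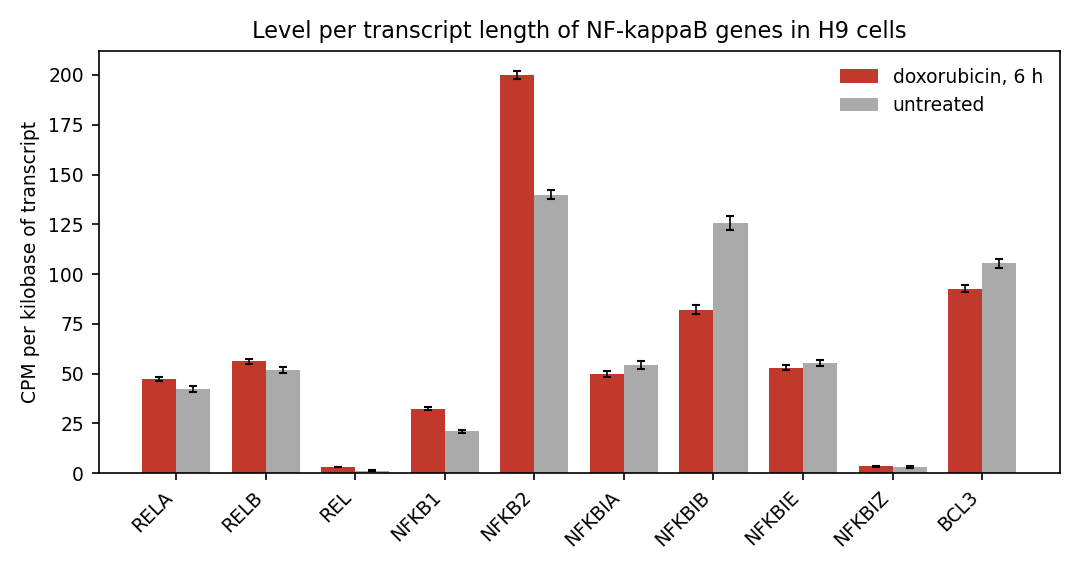
CPM per kilobase of transcript for each member, with the doxorubicin library in red left of the untreated library in grey and exact 95% Poisson intervals as bars. NFKB2 is highest at 199.9 with doxorubicin and 139.8 untreated, while REL and NFKBIZ are below 5 in both libraries.

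With doxorubicin the order after NFKB2 was BCL3 at 92.6, NFKBIB at 82.2, RELB at 56.1, NFKBIE at 52.9, NFKBIA at 49.7, RELA at 47.3, NFKB1 at 32.4, NFKBIZ at 3.48 and REL. In untreated cells NFKBIB at 125.7 stood above BCL3 at 105.3, and NFKBIE at 55.2 and NFKBIA at 54.1 stood above RELB at 51.7, followed by RELA at 42.2, NFKB1 at 21.1, NFKBIZ at 3.03 and REL. NFKBIA and RELA with doxorubicin, and NFKBIE, NFKBIA and RELB as neighbours in untreated cells, had overlapping counting intervals. The summed level of the 5 subunits was 338.8 with doxorubicin and 256.1 untreated, and that of the 3 classical inhibitors was 184.8 with doxorubicin and 235.1 untreated. The 3 classical inhibitors were thus 0.546 of the subunits with doxorubicin and 0.918 untreated. This quotient depends on the grouping, in which the precursor genes NFKB1 and NFKB2 count as subunits only. Most of that shift comes from NFKB2 and NFKBIB, and it refers to mRNA only. With the median length of each gene's transcripts in place of the longest, the quotients were 0.394 with doxorubicin and 0.652 untreated. RELA moved most with that choice, to 165.7 with doxorubicin and 147.9 untreated, second to NFKB2 in both libraries, since its median annotated transcript has 771 bases and the longest 2700. In untreated cells NFKBIB at 147.0 and BCL3 at 145.0 were close behind RELA by that length. No intervals were computed with it, so that order is not resolved.

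Ratios were tied to transcript length across the table and within the family. Over all 11043 measured genes with a length, Spearman's rho between length and log2 ratio was 0.55, across genes that share the same pair of libraries. Over the 10 members rho was 0.96, and 0.95 over the 9 members without REL, given as a description. With the median transcript length it was 0.66, and with the adjusted ratios described next it was 0.76 and 0.66, so the order of the members by length was in part still there after adjustment. The member with the lowest ratio, NFKBIB, has the shortest transcript, at 1159 bases, followed by NFKBIA at 1558, and the member with the highest ratio, REL, has the longest.

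**Figure D3:**
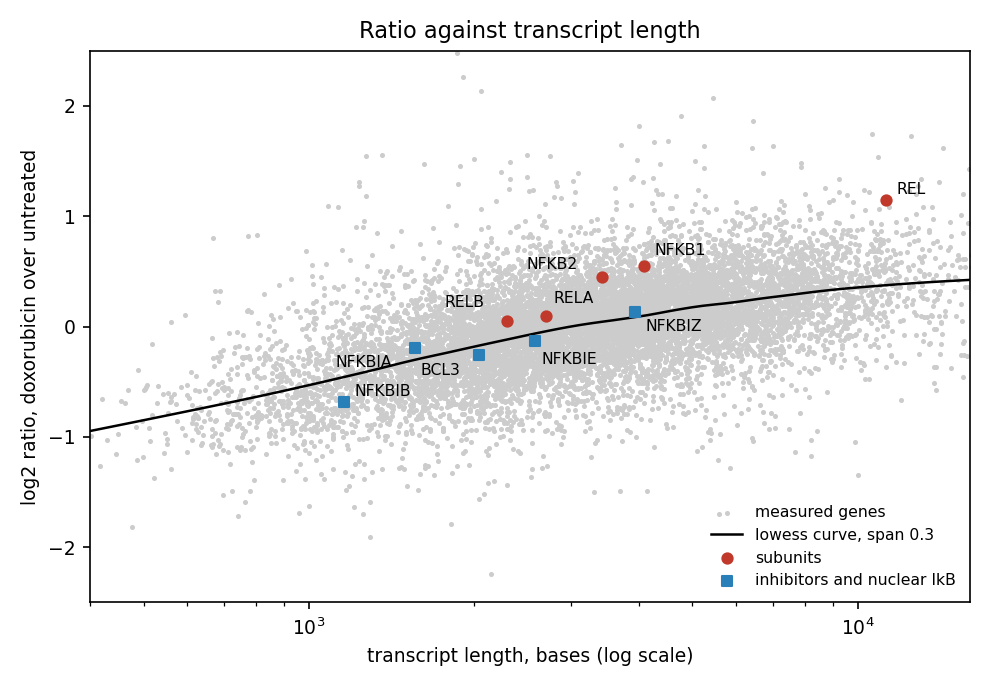
Log2 ratio of doxorubicin over untreated against transcript length (log axis) for measured genes in grey, with a lowess curve in black, subunits as red circles and inhibitors and nuclear IkB genes as blue squares; 56 genes lie outside the axes. NFKB1, NFKB2 and REL lie above the curve, with ratios relative to it of 0.41 to 0.78, NFKBIB lies below it at -0.22, and the other 6 members lie nearer to it.

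The ratios were therefore also computed relative to genes of like length. A lowess curve gave genes of the length of REL a log2 ratio of 0.37 and genes of the length of NFKBIB one of -0.46. Relative to that curve REL was at 0.78 (0.64 to 0.93) and was still called higher, beside 5.05% of genes so called, whereas NFKBIB was at -0.22 (-0.27 to -0.16) and not called. NFKB1 was then at 0.46 (0.40 to 0.52) and NFKB2 at 0.41 (0.39 to 0.44). Adjusted for 3 properties together, namely the length of the transcript, the length of its coding part and its GC content, REL was at 0.95 (0.81 to 1.10), at percentile 99.0, beside 4.31% of genes called higher. NFKB2 was at 0.37 (0.34 to 0.40), NFKB1 at 0.28 (0.22 to 0.34) and RELB at 0.24 (0.18 to 0.30), and the ratios of all 5 subunits stayed above 1.

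NFKBIB was at -0.25 (-0.30 to -0.19) in that adjustment and NFKBIE at -0.09 (-0.14 to -0.04). NFKBIA had no settled direction, at 0.12 (0.05 to 0.19) relative to length alone and -0.04 (-0.11 to 0.03) with coding length and GC content. Likewise BCL3 was at -0.07 (-0.12 to -0.03) and 0.08 (0.04 to 0.13), and NFKBIZ at 0.05 and -0.05 with intervals that include 0. With these adjusted ratios applied to the untreated levels, the inhibitor to subunit quotient with doxorubicin was 0.682 for length alone and 0.670 for all 3 properties, against 0.918 untreated. After either adjustment 0 members were called lower, beside 4.49% of genes for length alone and 3.44% for all 3 properties.

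Other genes of the pathway were read from 7 lists holding 113 different genes, of which 105 were measured. Of these 11 were called higher and 8 lower, with a median log2 ratio of 0.06, again near the background of 7.26% and 9.57%. After adjustment for the 3 properties, as in the rest of the lists, 8 of 105 were higher and 1 was lower, beside 4.31% and 3.44% of all genes, and the median was 0.07.

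In the list of the IKK complex and the kinases above it, 2 of 14 were higher and 0 lower. Of all measured genes 7.26% were called higher and 9.57% lower. The list's median was 0.16. After adjustment it was 0.04, with 2 of 14 called higher and 1 lower, beside 4.31% and 3.44% of all genes. ERC1, also known as ELKS, a regulatory partner of IKK that links it to ATM after DNA damage, had 1674 counts with doxorubicin and 461 untreated, a log2 ratio of 1.22 (1.07 to 1.37), and 0.78 after adjustment, still called. IKBKG, which encodes the regulatory subunit NEMO, had 1240 and 496 counts in doxorubicin and untreated cells, a log2 ratio of 0.68 (0.53 to 0.83) and 0.82 after adjustment. IKBKG shares 45.6% of its sampled stretches with the pseudogene IKBKGP1, so its value is uncertain. The catalytic subunit genes CHUK and IKBKB, named here because they complete the complex, were at 0.38 (0.29 to 0.47) and 0.11 (-0.005 to 0.23), neither called.

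The list of the DNA damage route to IKK, which repeats some of these genes, had 3 of 12 higher and 0 lower. That stands beside 7.26% and 9.57% of all measured genes, and the median was 0.23. Each called gene also belongs to another list. The higher ones were ERC1, IKBKG and RIPK1, the kinase that joins NEMO in stress signalling, at 0.65 (0.50 to 0.80) from 1258 and 514 counts in doxorubicin and untreated cells. RIPK1 was no longer called after adjustment, at 0.41. The list then had 2 of 12 higher and 0 lower, beside 4.31% and 3.44% of all genes, with a median of 0.11. Among receptor adaptors 2 of 14 were higher and 0 lower, beside 7.26% and 9.57% of all genes, with a median of 0.09. The 2 called were RIPK1 and IRAK1, a kinase of the Toll-like receptor route, at 0.60 (0.56 to 0.65) and 0.54 after adjustment, not called. After adjustment 0 of the 14 adaptors were called in either direction, beside 4.31% higher and 3.44% lower of all genes, and their median was 0.03.

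In the list of ubiquitin chain genes 0 of 13 were called in either direction, with a median of 0.20. Of all measured genes 7.26% were called higher and 9.57% lower. TNFAIP3, which encodes the feedback deubiquitinase A20, was at 0.36 (0.32 to 0.40) and RBCK1, which encodes a subunit of the linear ubiquitin ligase, at -0.44 (-0.47 to -0.40). After adjustment TNFAIP3 was at 0.07 and RBCK1 at -0.32. The median of this list was then 0.07, with 1 of 13 called higher and 0 lower, beside 4.31% and 3.44% of all genes. In the list of the ubiquitin ligase that marks IkB, 3 of 12 were lower and 0 higher, beside 9.57% and 7.26% of all genes. The list's median was -0.36. NEDD8, the modifier that activates the ligase, was at -0.75 (-0.91 to -0.60) and shares 37.0% of its stretches with other genes. CDC34, a ubiquitin-conjugating enzyme, was at -0.66 (-0.73 to -0.60), and RBX1, the RING subunit, at -0.61 (-0.69 to -0.53). After adjustment the list's median was 0.01 and 0 of 12 were called, with these 3 genes at -0.07, -0.17 and -0.11.

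Of the 15 nuclear partners and other IkB-like genes, the calls were 2 higher and 1 lower, beside 7.26% and 9.57% of all genes. The median was -0.10. After adjustment the median was 0.05 and 0 of 15 were called, beside 4.31% of all genes higher and 3.44% lower. The coactivators EP300 and CREBBP, acetyltransferases recruited by RELA, were at 0.88 (0.80 to 0.95) and 0.79 (0.70 to 0.87), but at 0.31 and 0.22 after adjustment and then not called. COMMD1, which promotes the degradation of RELA, was at -0.87 (-1.03 to -0.71), with 31.0% of its exon bases overlapped on its strand, and at -0.44 after adjustment, not called.

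**Figure D4:**
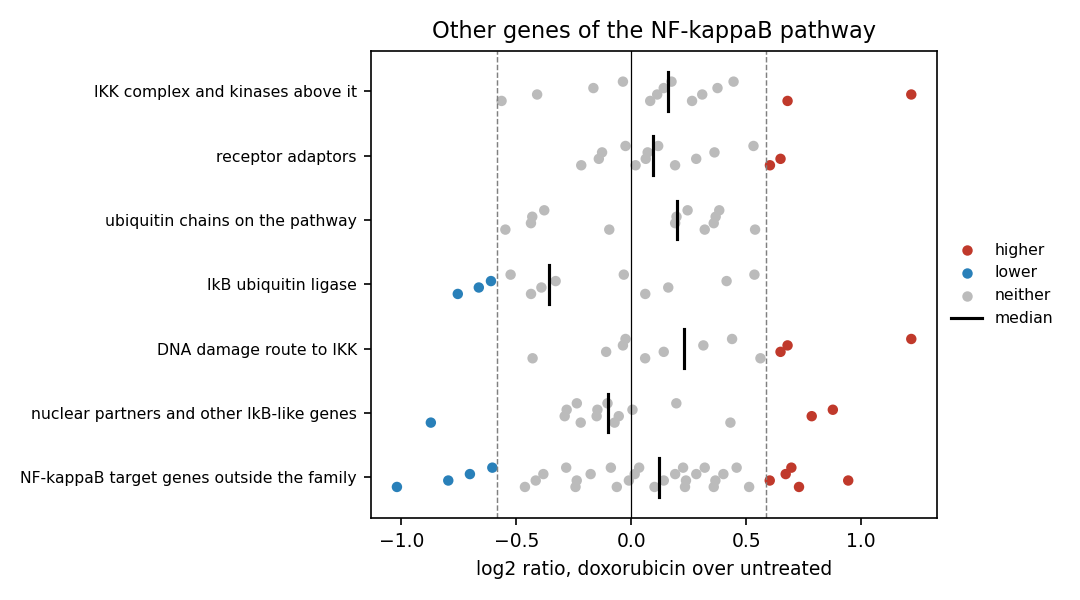
Log2 ratio of doxorubicin over untreated for the measured genes of 7 pathway lists, with genes called higher in red, lower in blue and neither in grey, list medians as black bars and the 1.5-fold limits as dashed lines. The list medians lie between -0.36 and 0.23, and ERC1 is the rightmost point at 1.22.

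Of 42 target genes outside the family 34 were measured, of which 5 were higher, 4 lower and 25 neither. Of all measured genes 7.26% were called higher and 9.57% lower, and the median of the targets was 0.12. PTGS2, which encodes cyclooxygenase-2, was at 0.94 (0.44 to 1.495) from 127 and 42 counts in doxorubicin and untreated cells, and IL2RA, the alpha chain of the interleukin 2 receptor, at 0.73 (0.34 to 1.15) from 187 counts with doxorubicin and 72 untreated. TNFRSF9, the costimulatory receptor 4-1BB, was at 0.70 (0.62 to 0.78). LTB, which encodes lymphotoxin beta, was at -1.02 (-1.04 to -0.999), CD70, a TNF family ligand, at -0.80 (-0.88 to -0.71) and CCL20, a chemokine, at -0.70 (-1.001 to -0.40). After adjustment 5 of 34 targets were higher and 0 lower, beside 4.31% and 3.44% of all genes, with PTGS2 at 0.94, IL2RA at 0.75 and TNFRSF9 at 0.60 still called and LTB, CD70 and CCL20 at -0.45, -0.31 and 0.21 not called. The other targets higher after adjustment, named after their values were seen, were EBI3 at 0.97 and CD40 at 0.61. EBI3 had 183 counts with doxorubicin and 77 untreated. CD40 had 187 and 87 counts in doxorubicin and untreated cells, and was not called as counted, at 0.46 (0.09 to 0.85). The adjusted median of the targets was 0.16. CXCL8, IL6, CCL3, CCL4 and IL1B had 0 counts in both libraries.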

How the data were processed

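The values were raw read counts per gene symbol for 2 libraries, deposited by the authors as whole numbers without scaling. The submitters' processing notes name HISAT2, featureCounts and hg19; the sources used here do not give versions, the gene annotation, the strand setting or how multiple alignments were treated. These choices affect genes that overlap or share sequence with others, REL and IKBKG among them.

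Counts were scaled with TMM in edgeR 4.0.16 (R 4.3.3), 0.5 was added to each count, and exact Clopper-Pearson intervals at 95% were computed in SciPy 1.17.1. Reads are not independent molecules, so intervals cover counting error only. Intervals of differences between members are exact conditional odds ratio intervals. Alternatives were DESeq2 1.42.0 size factors, total counts, other count minimums, limits, intervals and added counts, a lowess curve of span 0.3 on log transcript length, and regression splines with 4 basis functions per property (statsmodels 0.14.6). Lengths came from GENCODE 29 on GRCh38, a build other than that of the counts, and were available with coding length for 98.1% of measured genes. Promoter sequences are from RefSeq, GRCh38.p14. The members and gene lists were chosen with earlier results of these data known. Text names all members and, per list, up to 3 called genes in each direction, or the 2 with the most counts where none was called. Other names are marked, apart from NFKBID, the targets without counts in either library and the cell type markers. Some genes of the lists are not reported here and were left out of the list counts.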

Additional observations from a re-analysis of the deposited data

How the results depend on the processing

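With 1 library per condition no value has a replicate, and a count of 1 or 0 members rests on a single gene near or past a limit. Of the 50 alternative log2 ratios of members, 47 stayed on the same side of the calling rule. NFKB1 passed it under total-count scaling at 0.62, and NFKBIB no longer passed it at -0.22 after adjustment for transcript length and -0.25 after adjustment for 3 properties. Members called higher numbered 2 under total counts and 3 at the looser fold limit tried (9.64% and 20.4% of all genes), and members called lower numbered 0 after either adjustment and at a 2-fold limit (4.49%, 3.44% and 1.56% of all genes), against 1 in each direction. Pathway genes called higher were 27 of 105 at the looser limit and 1 at 2-fold, against 11, beside 20.4%, 1.14% and 7.26% of all genes. Those called lower were 22 at the looser limit, 1 at 2-fold and 1 after either adjustment, against 8, beside 21.5% of all genes at the looser limit and the shares above. The other 17 member counts and 16 pathway counts were within 1.5 times. Levels per kilobase left the counting interval in 16 of 20 cases when the median transcript length was used. No paired analysis was possible because each condition has 1 library.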

Other observations

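In the pathway lists, 2 further genes were called only after adjustment for transcript and coding length and GC content, and are named after their values were seen. MAP3K8, which encodes the kinase TPL2 that is held by the NFKB1 product p105, had 96 counts with doxorubicin and 91 untreated, a log2 ratio of -0.56 (-0.99 to -0.13) and -0.62 after adjustment. UBE2V1, an inactive partner of the enzyme that builds lysine-linked ubiquitin chains, had 87 counts with doxorubicin and 43 untreated and was at 0.37 (-0.17 to 0.94) and 0.62 after adjustment, and 81.0% of its sampled stretches recur in other genes. NFKBID, a nuclear IkB gene outside the 10 members, was at -0.10 (-0.30 to 0.09) from 533 counts with doxorubicin and 367 untreated.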
